A study of Mus musculus with 2 samples.

Results

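The cells described here are mouse small-intestinal organoid cells grown in collagen that carried a high level of Muc3 mRNA. They were chosen by a Muc3 level of at least 150 CPM, which is the count scaled to a total of 1000000 per cell, among the cells whose name carries the collagen hashtag. The rule found 82 of 336 collagen cells (24.4%, 95% Clopper-Pearson interval 19.9 to 29.4%), of 2090 cells in all, and left 254 other collagen cells. Because the members were chosen on Muc3 in these same cells, every difference from the other collagen cells is given as a description with no test.

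Organoids were grown from crypts of the proximal small intestine of wild-type C57BL/6 mice, and both cultures were taken on day 4. The first culture was kept in Matrigel, a basement membrane gel, with EGF (50 ng/mL), Noggin (100 ng/mL) and R-spondin1 (400 ng/mL). The second was kept in type I collagen with the same 3 factors plus Wnt3a (100 ng/mL), nicotinamide (10 mM) and bovine serum albumin (1%). The collagen gel was opened with collagenase (0.5 mg/mL) and the Matrigel with a recovery solution before both were made into single cells with TrypLE. Cells of each culture were tagged with their own hashtag antibody to EpCAM, an epithelial surface protein, then pooled and captured together on the BD Rhapsody system. There was 1 cell suspension per culture, so the matrix, the medium and the release of the cells cannot be told apart between cultures, and cells are not replicates of a condition. The 95% intervals below (exact Poisson for summed levels, Clopper-Pearson for shares of cells) cover counting error only.

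Muc3 encodes a membrane mucin, a large glycoprotein that is anchored in the apical membrane of absorptive cells and forms part of the glycocalyx over the microvilli. Enterocytes arise from dividing progenitors at the crypt mouth and stop dividing. They change their genes as they move up the villus, from antimicrobial genes near its base to keratin 20 and other late genes at its tip. Crypt cells placed in collagen without a basement membrane are known to take on a spread, repair-type state in which fetal and injury genes such as Ly6a, Clu and Anxa1 are expressed.

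The 82 members had between 30746 and 283336 counts per cell, with a median of 115567, against a median of 127370.2 in the other collagen cells. Their median mitochondrial share was 3.25% against 3.46%, and the median number of genes counted was 7434 against 8066. Across the 336 collagen cells the rank correlation of Muc3 with counts per cell was -0.002 and with the mitochondrial share -0.08. All 2090 cell barcodes were distinct. The names mark doublets of the 2 cultures only, and doublets within a culture could not be seen.

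Muc3 was 155 CPM in the lowest member, 388 CPM in the median member and 4228 CPM in the highest, with quartiles of 237 and 774 CPM. These levels came from 8 to 400 raw counts per cell. The 3 members just inside the threshold had 155 CPM each, and the 3 cells just outside it had 149.7, 149.6 and 148 CPM, so the threshold does not fall in a gap. There were 13 cells from 150 to under 200 CPM and 19 from 100 to under 150 CPM. No Muc3 was counted in 138 of the 336 collagen cells. The members held 84.8% of all Muc3 counts of the collagen cells. When cells were thinned to 43354 counts each, 67 of the 74 members deep enough remained at or above the threshold and 7 other cells reached it.

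**Figure D1:**
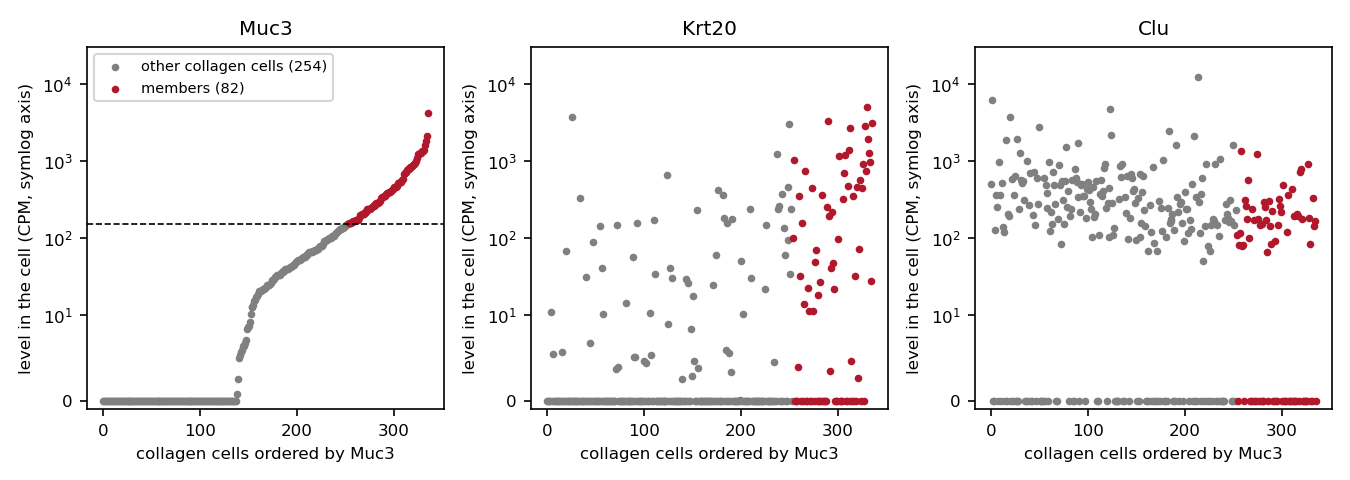
Level of Muc3, Krt20 and Clu in each of the 336 collagen cells (CPM, on an axis that is linear up to 10 and logarithmic above), ordered by Muc3, with the 82 members in red, the 254 other cells in grey and the threshold of 150 CPM dashed. Muc3 runs without a gap from 0 to 4228 CPM, Krt20 is counted in 50 members and 68 other cells, and Clu in 46 members and 179 other cells. Low values above 0 are absent for Clu, so a 0 may be a low level.

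Muc3 at this level was rare in the other culture. It was reached by 4 of 1615 Matrigel cells (0.248%, interval 0.0675 to 0.633%), and 3 of these were among the 1599 Matrigel cells kept. At least 1 Muc3 count was found in 116 of the 254 other collagen cells and in 292 of the 1599 kept Matrigel cells (18.3%, median depth 179044 counts). A single count in a cell can come from free RNA, so shares of cells with a count are read below against the levels. In summed counts Muc3 was at 526 CPM in the members, 27.0 CPM in the other collagen cells and 3.38 CPM in the Matrigel cells.

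The genes given as marking these cells did not all separate the members. Krt20, keratin 20 of mature enterocytes, was counted in 50 of 82 members and 68 of 254 other collagen cells, and ran from 0 through a median of 22.0 to 4998 CPM in the members. In summed counts it was at 350 CPM (338 to 362) in the members and 37.7 CPM (35.6 to 39.8) in the others, a log2 ratio of 3.18, and 1 cell held 14.3% of the members' counts. Here and below the log2 ratio is that of the summed CPM plus 1 in the members over the same in the other collagen cells. Tm4sf4, a 4-span membrane protein, had a member median of 355 CPM and a highest member of 3821 CPM, and summed to 595 CPM against 259 CPM, a log2 ratio of 1.19. Lgals3, galectin-3, was at 575 CPM in the median member and 9479 CPM in the highest. It summed to 1122 CPM against 597 CPM, a log2 ratio of 0.91, which is short of 2-fold. Il1rn, the interleukin-1 receptor antagonist, was counted in 42 of 82 members and 95 of 254 others. Its summed level was 80.6 CPM against 44.3 CPM, a log2 ratio of 0.85, with a median member at 6.48 CPM. Among the others, Il1rn was at 73.2 CPM in the 125 cells with a Ly6a count and 13.0 CPM in the 129 without. Tm4sf4 and Lgals3 belong to 49 genes of the deposited table that lack low values, so a 0 for them may be a level under a threshold. The members are therefore called by their rule, Muc3-high cells, and Il1rn and Lgals3 were not particular to them.

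Over 10227 genes that reached 5 CPM in either set, the median log2 ratio was -0.10. At least 2-fold higher in the members were 158 genes (1.54%) and at least 2-fold lower were 646 genes (6.32%). The following counts of list members past 2-fold are read against these shares. Since Muc3 chose the members, no enrichment was computed from them.

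The genes with the highest ratios in the Muc3-high cells included many known from absorptive enterocytes. After Muc3 and Krt20 came Creb3l3, a membrane-bound transcription factor of enterocytes and hepatocytes that acts on lipid and apolipoprotein genes. It ran from 0 through a median of 12.1 to 588 CPM in the members, and was counted in 47 of 82 members and 48 of 254 others. Its summed level was 65.8 CPM (60.8 to 71.2) against 7.45 CPM (6.54 to 8.43), a log2 ratio of 2.98. Creb3l3 was thus found in 57.3% of the members and in 18.9% of the other cells, and both sets hold cells without it. St3gal4, a sialyltransferase, had a member median of 77.8 CPM and a highest member of 2001 CPM. It summed to 212 CPM against 35.3 CPM, a log2 ratio of 2.55.

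Alpi, intestinal alkaline phosphatase of the brush border, ran from 0 through a median of 48.3 to 2100.1 CPM in the members and was counted in 57 of 82 members and 110 of 254 others. Its summed level was 239.9 CPM against 43.3 CPM, a log2 ratio of 2.44. Alpi reached 150 CPM in 28 members and 26 other cells, so 51.9% of the collagen cells at that Alpi level were members. The same level of Krt20 was reached by 29 members and 19 others. Both sets thus overlapped in Alpi and Krt20 cell by cell, and many members carried no count of them.

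Mttp, the transfer protein that loads lipid onto apolipoprotein B, was widely spread over the members. It was counted in 74 of 82 members, with a median of 136 CPM and a highest member of 1659 CPM, and in 154 of 254 other cells, with a median of 13.2 CPM. Its log2 ratio was 1.90 and the highest cell held 5.50% of the members' counts. Prap1, a secreted protein that binds lipid and takes part in lipoprotein export, was counted in all 82 members, from 11.3 CPM through a median of 2220 to 22864 CPM. It summed to 3127 CPM against 967 CPM, a log2 ratio of 1.69. The other leading genes were the alcohol dehydrogenases Adh6a (2.55) and Adh1 (2.29), the myosin light chain Myl7 (2.20), the steroid dehydrogenase Hsd17b2 (1.97), Hkdc1 of the hexokinase family (1.93), Tmem236 (1.78), Hsd17b13 of lipid droplets (1.68) and the cytochrome Cyp3a13 (1.61), all as log2 ratios. Adh1 rested on few cells, 17 of 82 members, and 1 of them held 28.2% of the members' counts. At an equal depth of 43354 counts per cell, Creb3l3 was counted in 51.4% of 74 members and 13.2% of 228 others, against 57.3% and 18.9% before thinning. Mttp was counted in 87.8% and 49.6% after thinning, against 90.2% and 60.6%.

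**Figure D2:**
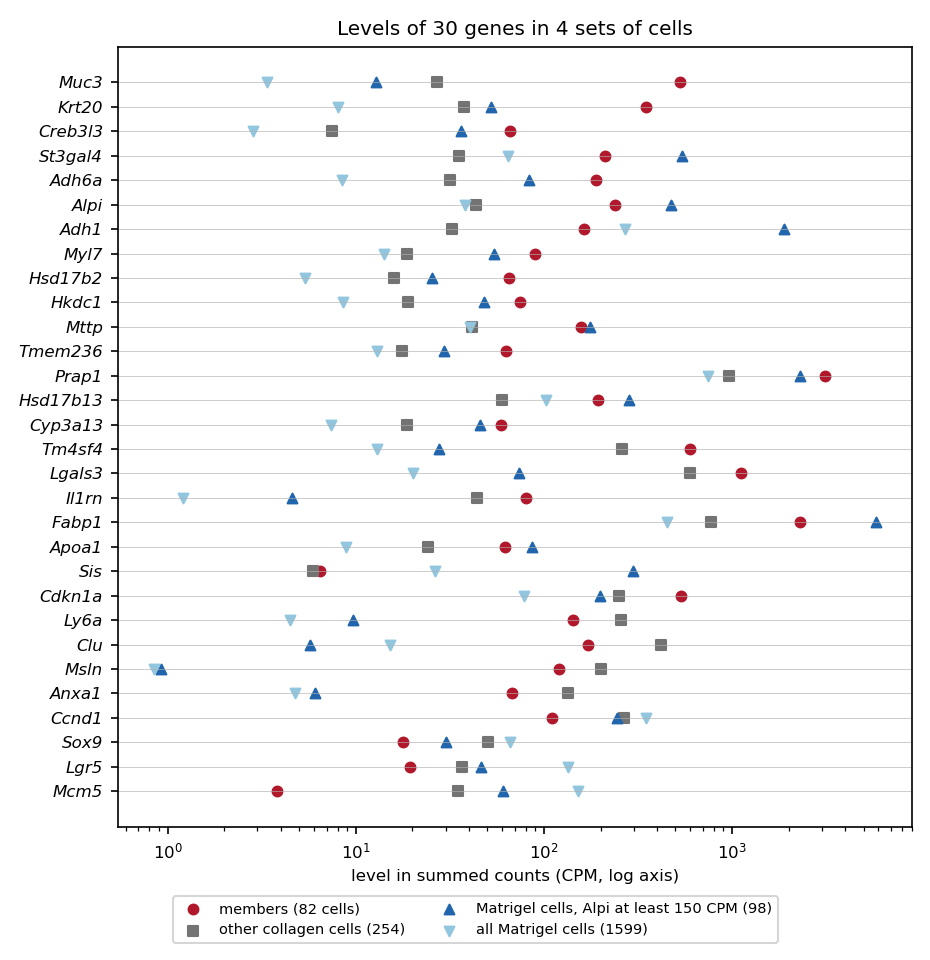
Summed levels (CPM, log axis) of 30 genes in the members, the other collagen cells, the Matrigel cells with Alpi of at least 150 CPM and all Matrigel cells. Krt20 and Creb3l3 are highest in the members, as is Muc3, on which the members were chosen. Adh1, Fabp1 and Sis are highest in the Alpi-high Matrigel cells, and Mcm5 is lowest in the members.

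Muc3, Krt20, Creb3l3 and Alpi are shown with the sequence around their start, as the mucin that chose the cells and a keratin, a factor and an enzyme of mature enterocytes among the 6 highest ratios. St3gal4 and Adh6a, also among these 6, are not printed. The windows run from 250 bases before to 50 bases after the RefSeq start, on the minus strand of GRCm38.p6, at chr5:137165997-137166296 for Muc3, chr11:99438104-99438403 for Krt20, chr10:81092542-81092841 for Creb3l3 and chr1:87101557-87101856 for Alpi. Each is printed 5′ to 3′ in the direction of the gene, and capitals mark the words searched for HNF4 (CAAAGNNCA) and CDX (TTTATNG) on either strand.
Muc3: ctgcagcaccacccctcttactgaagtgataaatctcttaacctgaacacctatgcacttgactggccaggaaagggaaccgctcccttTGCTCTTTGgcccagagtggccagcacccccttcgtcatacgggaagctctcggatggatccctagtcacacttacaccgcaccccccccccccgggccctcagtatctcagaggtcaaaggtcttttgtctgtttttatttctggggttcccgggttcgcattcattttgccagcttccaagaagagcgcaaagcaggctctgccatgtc
Krt20: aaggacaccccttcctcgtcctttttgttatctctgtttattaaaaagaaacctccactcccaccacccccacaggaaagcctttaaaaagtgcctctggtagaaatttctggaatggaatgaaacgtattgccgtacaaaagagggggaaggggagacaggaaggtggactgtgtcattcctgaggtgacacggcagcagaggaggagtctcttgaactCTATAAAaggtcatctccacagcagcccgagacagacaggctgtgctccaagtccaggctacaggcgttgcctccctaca
Creb3l3: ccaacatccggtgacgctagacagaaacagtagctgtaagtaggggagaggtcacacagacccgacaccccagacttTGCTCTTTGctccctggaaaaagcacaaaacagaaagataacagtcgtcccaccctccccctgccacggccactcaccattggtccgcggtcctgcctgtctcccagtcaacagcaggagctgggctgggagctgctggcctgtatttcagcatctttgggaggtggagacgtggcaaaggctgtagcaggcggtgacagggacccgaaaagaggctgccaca
Alpi: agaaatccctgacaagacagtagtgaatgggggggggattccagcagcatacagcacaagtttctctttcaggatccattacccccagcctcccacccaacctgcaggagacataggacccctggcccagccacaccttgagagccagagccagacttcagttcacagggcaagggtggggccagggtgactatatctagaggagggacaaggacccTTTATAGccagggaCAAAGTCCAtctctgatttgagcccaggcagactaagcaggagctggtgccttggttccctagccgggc
The HNF4 word begins 161 bases before the start in Muc3, 173 bases before it in Creb3l3 and 19 bases before it in Alpi, and is not in this window of Krt20. A second RefSeq start of Creb3l3, with its window at chr10:81098823-81099122, holds none of the words searched, and neither does the window of St3gal4. Of the 15 leading genes 14 had RefSeq windows, 15 windows in all, and 5 of the 15 windows held the HNF4 word, against 6.36% of 32851 windows of the same length. The CDX word was in 4 of 15 windows against 10.9%, the GATA word AGATAA in 5 against 11.2%, and the KLF word GGGNGTGG in 1 against 17.6%. Read on the other strand with T for N, the CDX word contains the TATA-box letters TATAAA. So it does in Krt20, in Alpi on the strand not printed, and in a CDX word of Adh6a. These words and the 15 genes were chosen with their levels known, and a match is a description of letters and not a binding site.

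Enterocyte transcription factors were measured for 23 of 25 listed genes, of which 4 were at least 2-fold higher and 0 lower, with a median log2 ratio of 0.52 beside -0.10 over all genes. Next to Creb3l3, these were Maf (19.8 CPM against 6.09 CPM, a factor of villus enterocyte programmes), Vdr (123 against 56.9 CPM, the vitamin D receptor) and Nr1h4 (43.0 against 19.9 CPM, the bile acid receptor). Vdr was counted in 62 of 82 members and 155 of 254 others, with medians of 67.2 and 14.2 CPM. Hnf4a, a master regulator of enterocyte identity, was at 394 CPM in the members and 274 CPM in the others, a log2 ratio of 0.52, and was counted in 81 of 82 members. Cdx2, the intestinal identity factor, had a log2 ratio of 0.53, and Klf4, a factor of postmitotic villus cells, of 0.94. These 3 did not reach 2-fold.

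Brush border genes split into structure and enzymes. Of 22 structural genes measured, 0 passed 2-fold in either direction and the median log2 ratio was 0.35. Cdhr2 and Cdhr5, cadherins that link the tips of microvilli, were at 92.1 against 53.5 CPM and at 129 against 78.5 CPM. Myo1a, the motor of the microvillus, was at 227 against 133 CPM, and was counted in 79 of 82 members. Of 8 enzymes measured, 3 were higher and 1 lower than 2-fold, with a median of 0.91, and Alpi led them, ahead of Ace (6.05 against 2.34 CPM) and Enpep (5.80 against 2.06 CPM), both peptidases. Mgam, maltase-glucoamylase, was at 101 against 52.0 CPM and Mep1b, a meprin protease, at 111 against 60.8 CPM, both short of 2-fold. Sis, sucrase-isomaltase, was at 6.44 CPM in the members and 5.90 CPM in the others, and 1 cell held 41.0% of the members' counts. The log2 ratio of Sis was 0.11, but 2.13 without 11 other collagen cells with high secretory cell genes and -0.67 at equal depth, so no direction is given for it. Lct, lactase, stayed under the 5 CPM floor with 0.607 and 0.464 CPM.

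Transport and lipid genes were next. Of 10 nutrient transporters measured, 3 were higher and 0 lower, with a median log2 ratio of 0.57. These were Slc3a1, a subunit of the cystine and basic amino acid carrier (77.0 against 25.6 CPM), Slc11a2, the apical iron importer (79.2 against 27.0 CPM), and Slc40a1, the basolateral iron exporter (55.5 against 22.8 CPM). Of the Slc11a2 counts of the members 30.0% came from 1 cell, and the median member was at 0. Of 14 lipid and apolipoprotein genes, 4 were higher and 0 lower, with a median of 0.66.

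Beside Mttp, these were Fabp1, the cytosolic fatty acid carrier, Apoa1, an apolipoprotein of chylomicrons, and Mogat2, which makes diacylglycerol from absorbed lipid. Fabp1 was uneven among the members. It ran from 0 through a median of 25 to 34393 CPM, was counted in 53 of 82 members and 150 of 254 others, and summed to 2283 against 774 CPM, a log2 ratio of 1.56. Apob, the scaffold of chylomicrons, was at 151 against 89.0 CPM, short of 2-fold. Apoa4 was counted in 2 members only, one of which held 81.8% of the counts, and stayed under the 5 CPM floor.

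Of 13 genes of drug, bile acid and retinoid metabolism, 5 were higher and 0 lower, with a median of 0.82. Beside Cyp3a13 they included Cyp4f14, a fatty acid hydroxylase (29.3 against 11.7 CPM), Abcc2, an apical export pump (242 against 110.0 CPM), and Cyp2s1 (229 against 107 CPM). Abcc2 was counted in 71 of 82 members with a median of 138 CPM, against a median of 51.3 CPM in the others.

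Genes that mark position on the villus were higher at both ends. Of 9 tip landmarks 4 were higher and 0 lower, with a median log2 ratio of 0.94, and of 6 base landmarks 2 were higher and 1 lower, with a median of 0.78. Among tip genes, Cdkn1a, the cell cycle inhibitor p21, was at 534 CPM in the members and 251 CPM in the others, with medians per cell of 342 and 139 CPM. Among base genes, Lypd8, which keeps bacteria from the colonic surface, was at 719 against 283 CPM and was counted in 74 of 82 members. Reg3g, an antimicrobial lectin, was at 22.0 against 4.55 CPM, counted in 13 members. Reg1 was listed at 0 in all members and counted in 1 other cell.

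In all, 3 membrane mucins reached 5 CPM. Apart from Muc3, these were Muc3a (11.1 against 3.57 CPM), which may share reads with Muc3 as its close relative, and Muc13 (292 against 175 CPM, counted in 80 of 82 members). Muc13 was short of 2-fold. Ion transport genes went both ways, with 3 of 18 higher and 4 lower. Slc9a2, an apical sodium and hydrogen exchanger, was at 18.0 against 2.91 CPM and Slc26a6, an apical anion exchanger, at 44.9 against 17.4 CPM. Slc12a2, the basolateral chloride importer of secreting crypt cells, was lower, at 59.1 against 142 CPM.

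Metabolic genes were measured next. All 24 glycolysis and hypoxia genes measured had a log2 ratio above 0 (0.06 to 1.29), with a median of 0.52, and 3 passed 2-fold. These were Adm, adrenomedullin (47.6 against 18.8 CPM), Egln3, an oxygen-sensing hydroxylase (256 against 116 CPM), and Ndrg1 (298 against 139 CPM). The 16 genes of fatty acid oxidation and ketogenesis ran from 0.09 to 0.88 with a median of 0.44, and 0 passed 2-fold. In sterol synthesis 1 of 18 passed, Insig1, which holds back sterol synthesis (99.6 against 38.2 CPM). Oxidative phosphorylation genes had a median of -0.01 with 0 of 17 past 2-fold.

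**Figure D3:**
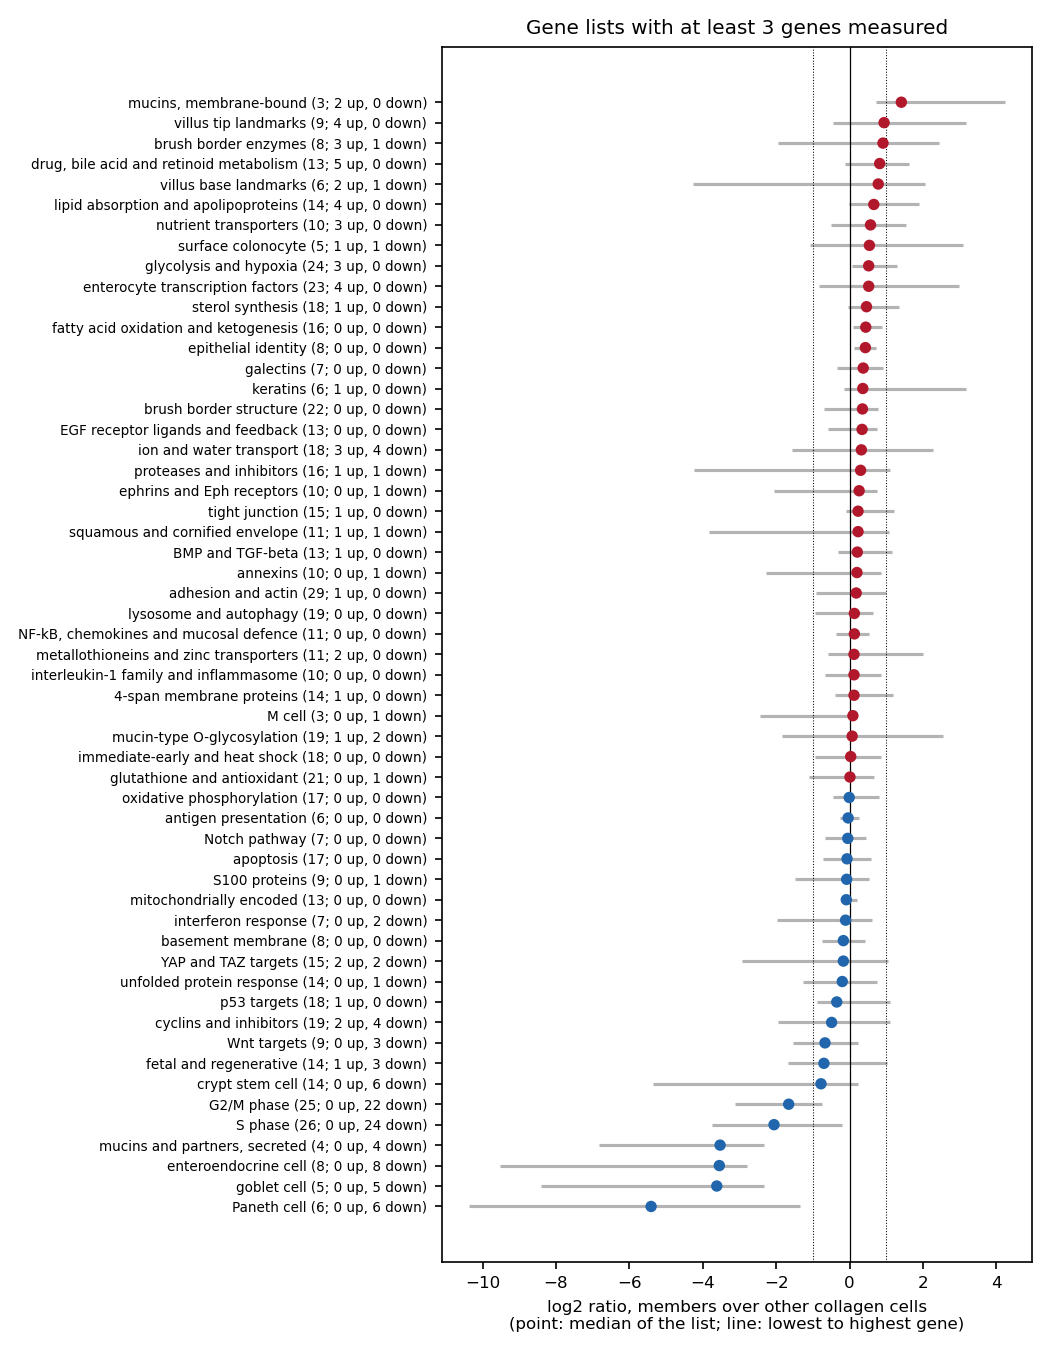
Log2 ratio of members over other collagen cells for each gene list with at least 3 genes measured, as the median (point) and the lowest to the highest gene (line), with dotted lines at 2-fold. Absorptive lists lie above 0, cell cycle lists lie at -2.06 and -1.66, and the 3 secretory cell lists have the lowest genes.

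Genes of dividing cells were lower in the Muc3-high cells. Of 26 S phase genes 24 were at least 2-fold lower and 0 higher, with a median log2 ratio of -2.06, and of 25 G2/M genes 22 were lower and 0 higher, with a median of -1.66. Mcm5, a subunit of the replicative helicase, was counted in 14 of 82 members and 102 of 254 others and summed to 3.80 against 34.8 CPM. Mcm3 of the same helicase was at 4.11 against 31.9 CPM, and Cdk1, the mitotic kinase, at 5.70 against 32.1 CPM. Mki67, a marker of cycling cells, was counted in 28 of 82 members (34.1%) and 136 of 254 others (53.5%), at 27.7 against 76.4 CPM.

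The members were not free of cycling cells. The 3rd of collagen cells with the highest summed S and G2/M genes held 13 members (15.9%, 8.72 to 25.6%) and 99 others (39.0%, 32.9 to 45.3%). Those 13 members had Krt20 at 28.0 CPM against 405 CPM in the other 69, Fabp1 at 96.4 against 2659.5 CPM and Creb3l3 at 7.91 against 75.8 CPM. Mttp was closer, at 126 against 163 CPM, as was Adh6a at 147 against 197 CPM, and Hsd17b13 was at 215 against 189.5 CPM. These 6 were picked to show the range after their values were seen. Without that 3rd, 143 genes were higher and 362 lower than 2-fold, of which 110 and 239 were among the genes above.

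Stem and Wnt target genes were also lower. Of 14 crypt stem cell genes 6 were lower and 0 higher (median log2 ratio -0.78), and of 9 Wnt targets 3 were lower and 0 higher (median -0.67). Ccnd1, cyclin D1, was counted in 47 of 82 members and 200 of 254 others, with medians of 14.6 and 99.2 CPM, and summed to 110.0 against 268 CPM. Cd44, an adhesion receptor and Wnt target, was at 24.8 against 73.5 CPM, and Sox9, a progenitor factor, at 17.8 against 50.5 CPM. Lgr5, the stem cell receptor for R-spondin, was counted in 31 of 82 members and 129 of 254 others, at 19.5 against 36.9 CPM, short of 2-fold. Olfm4 was listed at 0 in all members and counted in 3 others.

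The fetal and regenerative genes were present in the members, at a summed level between those of the other collagen cells with and without Ly6a. Of 14 genes measured 1 was higher and 3 lower, with a median log2 ratio of -0.70. The list summed to 6574 CPM in the members, 8471 CPM in the other collagen cells and 510.5 CPM in the Matrigel cells. Among the other collagen cells it summed to 11996 CPM in those with a Ly6a count and 4660.2 CPM in those without, so the members lay below the first and above the second. The list holds Ly6a itself, on which these cells were split. Clu, a secreted chaperone of repairing epithelium, was counted in 46 of 82 members and 179 of 254 others and summed to 172 against 421 CPM, a log2 ratio of -1.29. Low values above 0 were absent for Clu in the collagen cells, so its cell counts may miss low levels. Ly6a, the surface protein Sca-1, was at 142 against 257 CPM and Anxa1, an annexin, at 67.8 against 134 CPM, both short of 2-fold. The 1 higher gene was F3, tissue factor, at 103 against 50.7 CPM, with 34.4% of the members' counts in 1 cell. S100a6 was at 4605 against 6020.1 CPM and made up most of the list sum in both, so the summed levels mainly follow this gene.

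The squamous list summed to 15025 CPM in the members and 9723 CPM in the others, with a median log2 ratio of 0.23. Along the ranges of Muc3 described below it ran from 8784 CPM at 0 to 17597 CPM at 300 CPM and over. Most of these sums came from Sprr2a1 and Sprr2a2, near copies that may count the same reads. They were at 3723 and 3728 CPM at 0, and at 7548 and 7552 CPM at 300 CPM and over. Sprr1a was at 163 against 153 CPM, with 55.7% of the members' counts in 1 cell. Its log2 ratio of 0.09 became -1.11 at a Muc3 threshold of 300 CPM and -1.09 at equal depth, so no direction is given for it. Sprr1a reached 150 CPM in 7 members (8.54%) and 27 others (10.6%). Of 11 squamous genes 1 passed 2-fold upward, Sprr2a3, which has 44.4% of its member counts in 1 cell and may share reads with its near copies.

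Markers of other cell types were checked in the same way. In the goblet, Paneth and enteroendocrine lists, all 5, 6 and 8 genes measured were lower than 2-fold, and the lists summed to 78.6, 105 and 4.27 CPM in the members against 1322, 2841 and 936 CPM in the others. These sums came from few cells. The 3 lists together reached 10000 CPM in 11 other collagen cells and in 0 members. Spink4, Agr2, Chgb and Defa24 were listed at 0 in all members and counted in only 4 or 5 other cells each. Tff3, a goblet cell peptide, was counted in 52 members, but 81.4% of its counts came from 1 member cell at 5610.3 CPM. Without the 11 cells, Lyz1 turned to a log2 ratio of 0.55 and Muc2 to 0.40, so the low values of these lists rest on those 11 cells.

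The tuft and endothelial lists had 0 genes at 5 CPM. Fibroblast genes summed to 1.27 against 24.1 CPM and immune genes to 6.48 against 10.4 CPM. Epcam was counted in all 82 members, from 310.2 to 3718 CPM.

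The levels were then followed along Muc3 within the collagen culture. Cells were set in 5 ranges of Muc3, with 138 cells at 0, 62 above 0 and under 50 CPM, 54 from 50 to under 150, 32 from 150 to under 300 and 50 at 300 CPM and over. Alpi was at 21.1, 57.4, 75.2, 123 and 342 CPM and Mttp at 23.4, 53.1, 66.3, 131 and 180.1 CPM in these ranges. Krt20 was at 26.2, 25.9, 75.9, 100.0 and 568 CPM, so most of its difference lay in the cells at 300 CPM and over. Creb3l3 was at 3.09, 8.93, 15.1, 63.0 and 68.3 CPM, with its largest step at the threshold for members. Fabp1 was at 75.8 CPM without Muc3, 497 CPM under 50 and 2599.5 CPM from 50 to under 150. It was at 2002 CPM from 150 to under 300 and 2528 CPM at 300 and over. In summed counts its step thus lay below the threshold for members. Such sums can rest on few cells, as Fabp1 was counted in 53 of 82 members and reached 34393 CPM in 1 of them.

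S phase genes summed to 888, 828, 575, 311 and 279 CPM and Wnt targets to 699.6, 588, 452, 398 and 284 CPM over the same ranges. G2/M genes did not fall evenly, with 1118, 759, 1321, 453 and 338 CPM, and were highest from 50 to under 150 CPM of Muc3. The fetal and regenerative list summed to 9889 CPM in cells without Muc3 and to 6638 CPM at 300 CPM and over. Of these sums S100a6 made 6973 and 4609.6 CPM. The median counts per cell ran from 121098 at 0 through 141884, 138611 and 132561 to 100275 in the highest range, so the highest range was the shallowest.

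**Figure D4:**
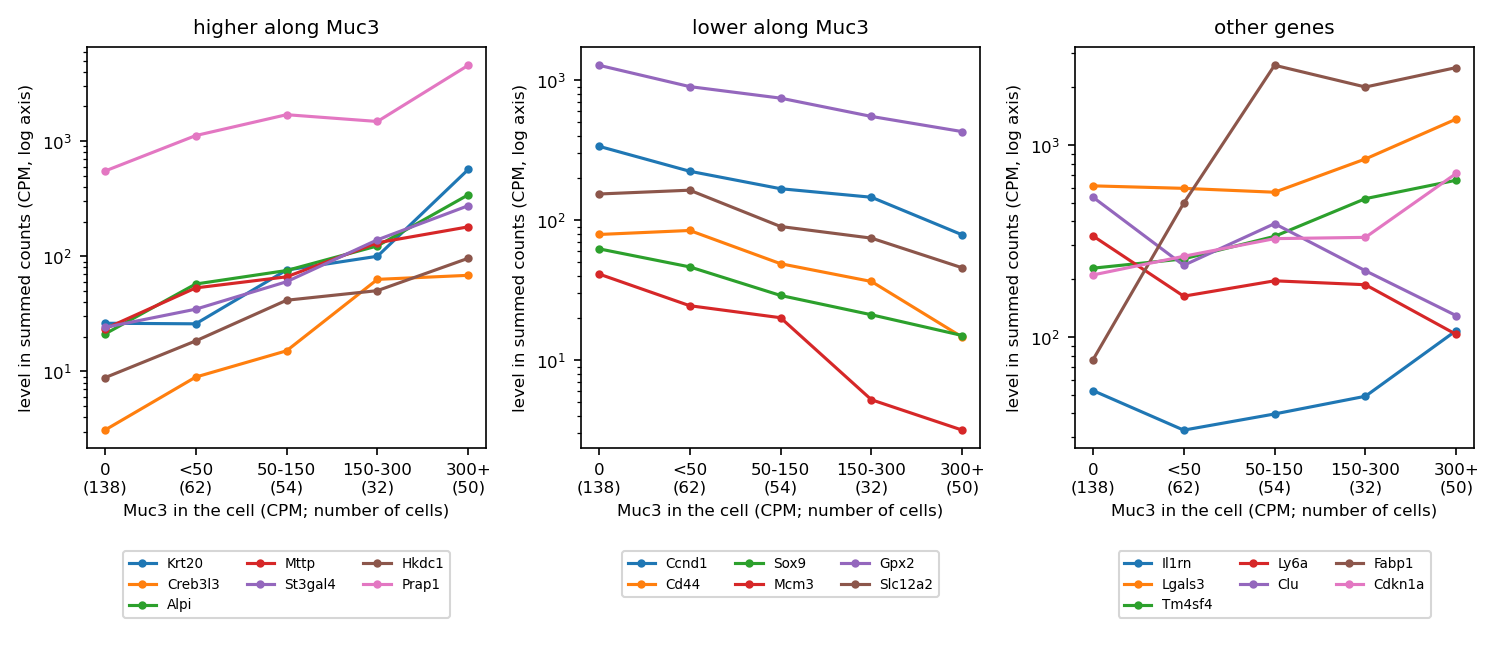
Summed levels (CPM, log axis) of 20 genes in the 5 ranges of Muc3, with the number of cells under each range. Alpi and Mttp are higher in every next range, Ccnd1 and Sox9 are lower, and Il1rn is lowest in the cells with Muc3 above 0 and under 50 CPM.

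Among 8179 genes with a count in at least 100 collagen cells, those most like Muc3 by rank over the 336 cells were Prap1 (0.57), Mdh2 (0.57), Mttp (0.53), Hkdc1 (0.52), Ckmt1 (0.51), Abhd11os (0.50), Selenbp1 (0.48), Hsd17b13 (0.45), Lypd8 (0.44) and Cda (0.44), as Spearman correlations. The cells share 1 library, and the correlations are descriptions. Mdh2, malate dehydrogenase of mitochondria, was counted in all 82 members, from 321 through a median of 1804 to 3561 CPM, and in 252 others with a median of 919.8 CPM. Its log2 ratio of 0.76 was short of 2-fold although it ranked beside Prap1.

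The 82 members were not uniform. Ly6a is one of the 49 genes without low values, and its smallest value above 0 was 6.00 counts, so a cell without a Ly6a count may hold a level under that. A Ly6a count was found in 26 of them (31.7%, 21.9 to 42.9%) and in 125 of the 254 others (49.2%, 42.9 to 55.5%). The 26 members with Ly6a and the 56 without had Krt20 at 341 and 354 CPM and Alpi at 195 and 262 CPM. Nutrient transporters summed to 335 CPM with Ly6a and 517 CPM without, and lipid genes to 2282 and 4226 CPM. The lipid sums differed mainly through Fabp1, at 968 CPM with Ly6a and 2938 CPM without. Most of the transporter difference lay in Slc11a2, at 11.1 and 113 CPM. The fetal and regenerative list, which holds Ly6a itself, summed to 8388 and 5672 CPM, of which S100a6 made 5631 and 4094 CPM. Adh6a was at 56.5 and 256 CPM, Apoa1 at 25.8 and 80.3 CPM and Vdr at 70.0 and 149.9 CPM. Other genes of these lists went the other way, with Apob at 189 and 133 CPM and the fetal list gene F3 at 56.2 and 127 CPM, and Mogat2 was at 40.6 and 45.5 CPM. Clu was at 334 and 91.2 CPM, Il1rn at 137 and 52.8 CPM, and Plat, tissue plasminogen activator, at 228 and 102 CPM.

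Over the 82 members, Lgals3 and Anxa2 had a Spearman correlation of 0.73 and Il1rn and Anxa2 of 0.64, while Krt20 and Ccnd1 had -0.44. Fabp1 and Krt20 had 0.08. Vdr had -0.58 with Krt19, -0.56 with Anxa2 and -0.48 with Lgals3, but 0.36 with Adh6a, and Adh6a had -0.40 with Krt19. These pairs were picked after their values were seen.

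**Figure D5:**
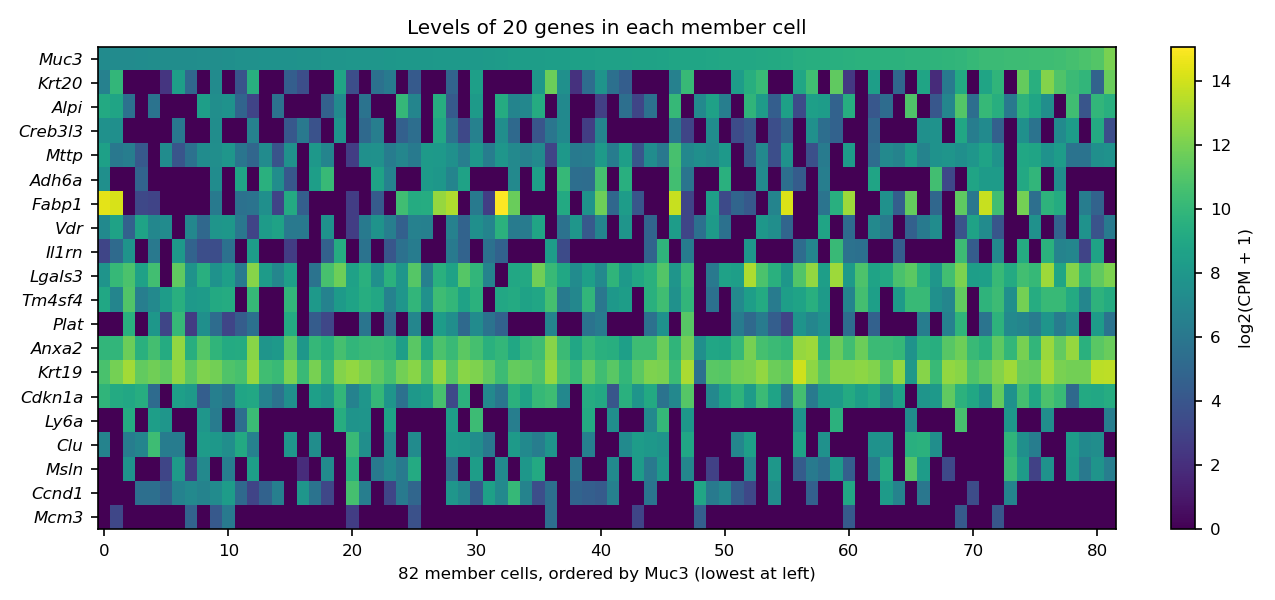
Level of 20 genes in each of the 82 members, as log2 of CPM plus 1, with the cells ordered by Muc3 from the lowest at the left. Lgals3, Anxa2 and Krt19 fill most cells, Mcm3 is counted in 12, and Fabp1 is high, up to 34393 CPM, in a few cells spread over the range of Muc3.

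The members were set beside the 98 Matrigel cells with Alpi of at least 150 CPM, a set chosen on Alpi alone. Their Alpi level is therefore no comparison. Mttp was alike in both, at 157 CPM in the members and 176 CPM in the Matrigel cells, and Prap1 was at 3127 and 2308 CPM. Lower in the members were Fabp1 (2283 against 5813 CPM), Adh1 (164 against 1888 CPM), Sis (6.44 against 298 CPM) and Lypd8 (719 against 1185 CPM). Apoa4 was at 2.32 against 48.2 CPM and Apoc3, a further chylomicron protein, at 0.105 against 37.6 CPM, counted in 1 member.

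Higher in the members were Krt20 (350.0 against 52.2 CPM), Lgals3 (1122 against 73.4 CPM), Tm4sf4 (595 against 27.8 CPM) and Il1rn (80.6 against 4.60 CPM). Muc3 was at 526 against 12.8 CPM, but the members were chosen on it, so its level is no comparison either. The fetal and regenerative list summed to 6574 CPM in the members and 1028 CPM in the Alpi-high Matrigel cells. Metallothionein and zinc transporter genes summed to 982 and 14896 CPM, and to 938 CPM in the other collagen cells, near the members. In all Matrigel cells they summed to 8209 CPM. Yet their median log2 ratio of the members over all Matrigel cells was 0.41, so most of these genes were not lower in that comparison. Lgals3, Tm4sf4, Il1rn and the fetal list were also higher in the other collagen cells than in the Alpi-high Matrigel cells, at 597, 259, 44.3 and 8471 CPM. No test across cultures was possible with 1 suspension of each.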

How the data were processed

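The authors deposited unscaled expected counts, partly fractional, of 37172 genes in 2090 cells, and 75.6% of the values above 0 were whole within 1e-06. No source used here says whether copies of a molecule were collapsed, so intervals may be too narrow. The first 49 genes lack low values, with smallest values of 3.33 to 183. Hashtags were deposited as whole-number counts, and 9 other hashtag columns were not used. The submitters' processing notes name GRCm39, STARsolo 2.7.10a, cutadapt 4.1 and R 4.2.1 with no role or order, and the annotation was not given in the sources used here. RefSeq promoters are of GRCm38.p6, another build, and serve only for their letters.

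Cell names of the table set the culture (A952 for collagen, A953 for Matrigel, per the labels), and 139 doublet-named cells were left out. A filter of at least 500 genes and at most 30% mitochondrial counts per cell took out 16 Matrigel and 0 collagen cells. Counts were summed over a set of cells, rounded for intervals, and scaled to 1000000. The log2 ratio used a pseudocount of 1 CPM and genes reaching 5 CPM in either set, and understates low genes. At least 2-fold stands in for a call, since no test was possible with 1 suspension per culture. Thinning drew 43354 counts per cell and left out 8 members and 26 others that were shallower. The ratio was tested on simulated data.

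Genes named were the 15 with the largest ratio toward the members and the 12 away from them (reaching 50 CPM with at least 100 counts, leaving out ribosomal, mitochondrial, predicted, pseudogene and clone names), up to 4 of each of 61 lists reaching 10 CPM, a short list of known markers, and the 10 highest correlations with Muc3. Other genes were named after their values were seen. The members and lists were chosen with earlier results of these data known. Alternatives were 18 settings of threshold, comparison set, pseudocount, floor, scaling and cells. Python 3.11.15, numpy 2.4.6, scipy 1.17.1, pandas 2.3.3 and matplotlib 3.10.9 were used.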

Additional observations from a re-analysis of the deposited data

Results flagged for a closer look

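Muc3 of at least 150 CPM was also found in 15 of 139 cells that the deposited names mark as doublets of the 2 cultures (10.8%, exact binomial interval 6.17 to 17.2%), which are in no comparison above. It stood out because 4 of 1615 Matrigel cells (0.248%) reached the same level, but 82 of 336 collagen cells (24.4%) did so too. With doublet-named cells of at least 60% collagen hashtag added to the collagen cells, 94 of 386 (24.4%) reached it. Muc3 in these 15 cells ran from 199 through a median of 346 to 1432 CPM, and their median depth was 144080.3 counts. The share of the collagen hashtag in them ran from 42.4 to 98.6% with a median of 85.1%. Whether they hold 1 cell or more was not tested.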

How the results depend on the processing

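No replicate could be left out and no paired analysis was possible because each culture was 1 suspension. The 82 members became 101 at a Muc3 threshold of 100 CPM and 50 at 300 CPM. The 646 genes lower by 2-fold became 381 at 100 CPM, 1079 at 300 CPM, 150 with a pseudocount of 10 CPM, 1038 at a floor of 1 CPM, 228 at a floor of 20 CPM and 362 without the top 3rd by S and G2/M genes, and the 158 higher genes became 244 at 300 CPM, 59 with a pseudocount of 10 CPM and 102 at a floor of 20 CPM. Higher genes were 19.7% of all past 2-fold, and 30.9% at the floor of 20 CPM. The cause was not tested. The settings that left out secretory cells, dividing cells or the cell with most counts were added after seeing the data.

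Of 4122 log2 ratios of single genes under these settings, 2766 lay within 0.1 of the value reported. Sign changed in 56 of them, from 35 of 229 genes, of which 15 genes were past 2-fold (17 ratios, given below) and the others at most 0.67 from 0. Of 1059 list medians 801 lay within 0.1 and 44 changed sign, from 18 of 59 lists, none past 2-fold and none over 0.54 from 0. Without the 11 secretory cells Lyz1 turned to 0.55, Tac1 to 0.01, Muc2 to 0.40, Chga to 0.43, Fcgbp to 0.94, Mmp7 to 0.03, Tph1 to 0.13, Guca2b to 2.25 and Vim to 0.10. Without the top 3rd by S and G2/M genes Kif20b turned to 0.16 and Kif11 to 0.12. With zeros of genes lacking low values set to the smallest kept, Agr2 turned to 0.08, Cck to 0.09 and Reg1 to 0.10. Guca2b turned to 0.10 at a hashtag share of 95%. Apoa4 turned to -0.07 without the Sprr1a-high cells and -0.06 without cells of high mitochondrial share or low depth. Krt20 stayed between 2.54 and 3.75 and Creb3l3 between 2.12 and 3.45. Il1rn ran from 0.52 to 1.25 and Lgals3 from 0.51 to 1.12, so both cross 2-fold.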

Other observations

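Some gene families had several members at least 2-fold higher in the Muc3-high cells and were picked after their values were seen, with no test. Cytochromes of the Cyp2c family were among them, with Cyp2c55 at 25.5 CPM in the members against 2.12 CPM in the other collagen cells, Cyp2c66 at 13.1 against 1.58 CPM and Cyp2c65 at 155 against 54.8 CPM. Cyp2c55 was counted in 15 of 82 members. Beside Adh1 and Adh6a, the alcohol dehydrogenase Adh4 was at 10.4 against 1.91 CPM. Of the carboxylesterases, Ces2c was at 36.0 against 12 CPM, Ces2a at 31.9 against 13.2 CPM and Ces2e at 156 against 76.5 CPM, and these near copies may share reads. Abcg5 and Abcg8, whose products together pump sterols out of enterocytes, were at 42.3 against 17.9 CPM and 17.6 against 6.65 CPM.

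Ihh, the Hedgehog ligand that villus epithelium sends to the stroma, was at 50.3 against 21.2 CPM. Mxd1, a repressor that opposes Myc in differentiated cells, was at 80.3 against 34.2 CPM. Cidec, a protein of large lipid droplets, was at 14.3 against 3.36 CPM and Scd1, the stearoyl-CoA desaturase, at 182 against 75.4 CPM.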
